A study of Mus musculus with 10 samples.

Results

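Genes stimulated by type I interferon were compared in whole liver between heterozygous Tgfbr2 knockout mice and littermate controls; Tgfbr2 encodes a receptor chain that binds the cytokine TGF-beta. The genes were chosen by symbol from a list of 41 classical targets of interferon alpha and beta. That rule used no measured value, but the members were chosen with earlier results of these data known. In the array's annotation 38 of them were found, on 42 probes, among 16383 named genes. Ifi44, Dtx3l and Herc6 carried no probe there and were dropped. There were 6 libraries titled Tgfbr-/+, here Tgfbr2+/-, from males on a chow diet, and 4 WT libraries on a chow diet, whose titles state no sex. Each library was read on a 2-colour oligonucleotide array against 1 shared pool, made from the livers of 6 wild-type controls. The labels give neither the age or strain of the mice nor the design of the mutant allele. A value is a log2 ratio over that pool, and a difference is Tgfbr2+/- minus WT on the same log2 scale. The direction of the ratio, library over pool, is inferred and is not stated in the labels, whose titles name the pool first. If it ran the other way every sign below would turn, and Tgfbr2 would be higher in the heterozygous libraries.

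Type I interferons bind the receptor formed by Ifnar1 and Ifnar2, which activates the kinases Jak1 and Tyk2. Stat2 and Irf9 then act in a complex that binds the interferon-stimulated response element, a pair of GAAA cores in the promoters of target genes. The products degrade viral RNA, block virus entry or release, sense foreign nucleic acid and, through Irf7 and Usp18, raise or damp the signal. In liver both hepatocytes and Kupffer cells, the resident macrophages, answer interferon.

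The response element can be seen in the promoters of the genes themselves. RefSeq promoters of assembly GRCm38.p6, 250 bases before to 50 after an annotated start, were at hand for 27 of the 38 genes. The letters GAAANNGAA were searched on both strands, and overlapping matches were counted. They stood in 16 of the 27 genes (59.3%) and in 9.17% of the 13016 measured genes with a promoter. Over all 32851 promoters of 300 bases the share was 8.56%. At least 2 matches were held by 11 of the 27 genes (40.7%) and by 0.799% of all. The 4 promoters below belong to the genes with the smallest p between the groups among those that hold the letters, and show how the cores are placed. Capitals mark the matches, and on the opposite strand they read as the reverse complement.
Trim30a (chr7:104446076-104446375, minus strand): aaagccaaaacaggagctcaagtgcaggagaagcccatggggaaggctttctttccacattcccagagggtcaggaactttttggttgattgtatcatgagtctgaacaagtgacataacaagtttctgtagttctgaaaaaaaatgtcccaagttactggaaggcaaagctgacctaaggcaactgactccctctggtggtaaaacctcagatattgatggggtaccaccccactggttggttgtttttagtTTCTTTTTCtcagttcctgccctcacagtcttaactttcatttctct
Oas1g (chr5:120887564-120887863, minus strand): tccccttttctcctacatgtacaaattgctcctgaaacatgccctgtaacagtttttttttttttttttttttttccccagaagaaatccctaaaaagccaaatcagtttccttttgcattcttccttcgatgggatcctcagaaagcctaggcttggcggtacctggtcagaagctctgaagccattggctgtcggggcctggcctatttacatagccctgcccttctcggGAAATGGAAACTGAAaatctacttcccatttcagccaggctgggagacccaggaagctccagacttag
Ifit1 (chr19:34640639-34640938, plus strand): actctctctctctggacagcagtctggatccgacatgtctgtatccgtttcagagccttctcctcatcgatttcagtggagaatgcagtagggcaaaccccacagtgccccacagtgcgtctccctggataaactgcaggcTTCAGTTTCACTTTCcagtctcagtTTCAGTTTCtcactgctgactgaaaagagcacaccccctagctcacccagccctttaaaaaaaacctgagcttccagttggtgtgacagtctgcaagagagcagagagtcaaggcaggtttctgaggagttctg
Ifitm3 (chr7:141010695-141010994, minus strand): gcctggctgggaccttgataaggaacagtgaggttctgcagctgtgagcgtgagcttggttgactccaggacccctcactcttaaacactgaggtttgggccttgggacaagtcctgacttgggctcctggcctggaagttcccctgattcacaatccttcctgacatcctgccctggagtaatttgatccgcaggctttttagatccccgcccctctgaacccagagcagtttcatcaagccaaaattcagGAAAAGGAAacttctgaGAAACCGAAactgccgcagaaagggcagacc
Counted from the annotated start, with negative numbers upstream, the first printed base of each match lay at -18 and -12 in Oas1g, where the matches overlap, from -109 to -84 for the 3 of Ifit1, at 2 and 19 in Ifitm3 and at 3 in Trim30a. The matches of Ifit1 and Trim30a lie on the opposite strand. Trim30a has 2 annotated starts, and the promoter of the downstream one, labelled start 1 in the plot of match positions, is shown.

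**Figure D1:**
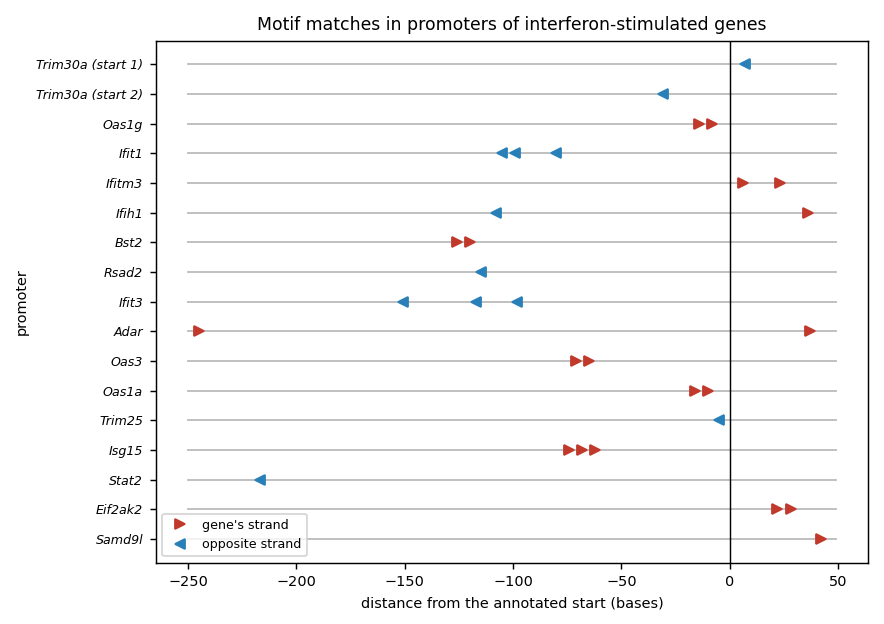
Places (match centres) of GAAANNGAA in the promoters of the 16 interferon-stimulated genes that hold it, ordered by p between the groups, with both starts of Trim30a; x is the distance from the annotated start in bases, the grey line is the window searched, and right and left arrows are the gene's own and the opposite strand. Ifit1, Ifit3 and Isg15 hold 3 matches each, and Oas1g, Oas1a, Oas3, Bst2 and Eif2ak2 hold 2 that overlap.

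The 11 genes with a promoter but no match included Irf7, Ifit2, Oasl2 and Lgals3bp, which had some of the smallest p between the groups. The median difference was 0.13 over the 16 genes with the letters and 0.14 over the 11 without. At an unadjusted limma p under 0.05, 4 of the 16 and 4 of the 11 were higher, where 2.97% of all genes were. These are descriptions of the windows searched.

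Before the groups were compared, the libraries were checked. Column medians lay between 0.004 and 0.016 on the log2 scale, and library SDs over all probes between 0.130 and 0.239. Pearson correlations between libraries over all probes ran from -0.32, for Tgfbr2+/- replicate 5 with WT replicate 1, to 0.52. With so low a correlation the direction of those 2 columns is not settled, so counts are also given with each turned in sign. Tgfbr2 itself, as the mean of its probes, lay at -0.50, -0.40 and 0.05 (lowest, median and highest) in Tgfbr2+/- libraries, against 0.23, 0.37, -0.07 and 0.08 in WT replicates 1 to 4, a difference of -0.47 ± 0.12 (SE; limma adjusted p = 0.516). The highest heterozygous value was that of the library labelled Tgfbr2+/- replicate 4, which lay within the WT range and so goes against its label. In the 2 columns of unsettled direction, Tgfbr2 as deposited was at -0.49 in Tgfbr2+/- replicate 5 and 0.23 in WT replicate 1. Turning a column would change the sign of its value. Array ratios give no absolute level, so the tissue could not be checked by which markers are expressed. The 8 measured hepatocyte markers averaged -0.21 to 0.06 in Tgfbr2+/- libraries and -0.14 to 0.08 in WT libraries.

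Most interferon-stimulated genes averaged higher in Tgfbr2+/- livers, by small amounts, and none passed the test over all genes. Of the 38, 35 had a positive difference, where 52.6% of all genes did. The median difference was 0.15, against 0.004 over all genes. At an unadjusted limma p under 0.05, 13 of the 38 (34.2%) were higher and 0 lower, while over all genes 2.97% were higher and 2.57% lower. All 6 Tgfbr2+/- libraries lay above all 4 WT libraries for Ifi27l2a, Lgals3bp and Oas1g, 3 of the 38 (7.89%), where 0.726% of all genes did so. After Benjamini-Hochberg adjustment over the 16383 genes limma called 0 genes, which is 0% of all. The limma adjusted p of the 38 ran from 0.270 to 0.994. An exact permutation test gave a lowest adjusted p of 0.937. Its 210 groupings allow no p below 0.0048, so that test could hardly call a gene after adjustment over so many. The members were chosen with earlier results of these data known, so these counts describe the list and do not test it. In whole liver, more cells of a kind and more RNA per cell cannot be told apart.

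**Figure D2:**
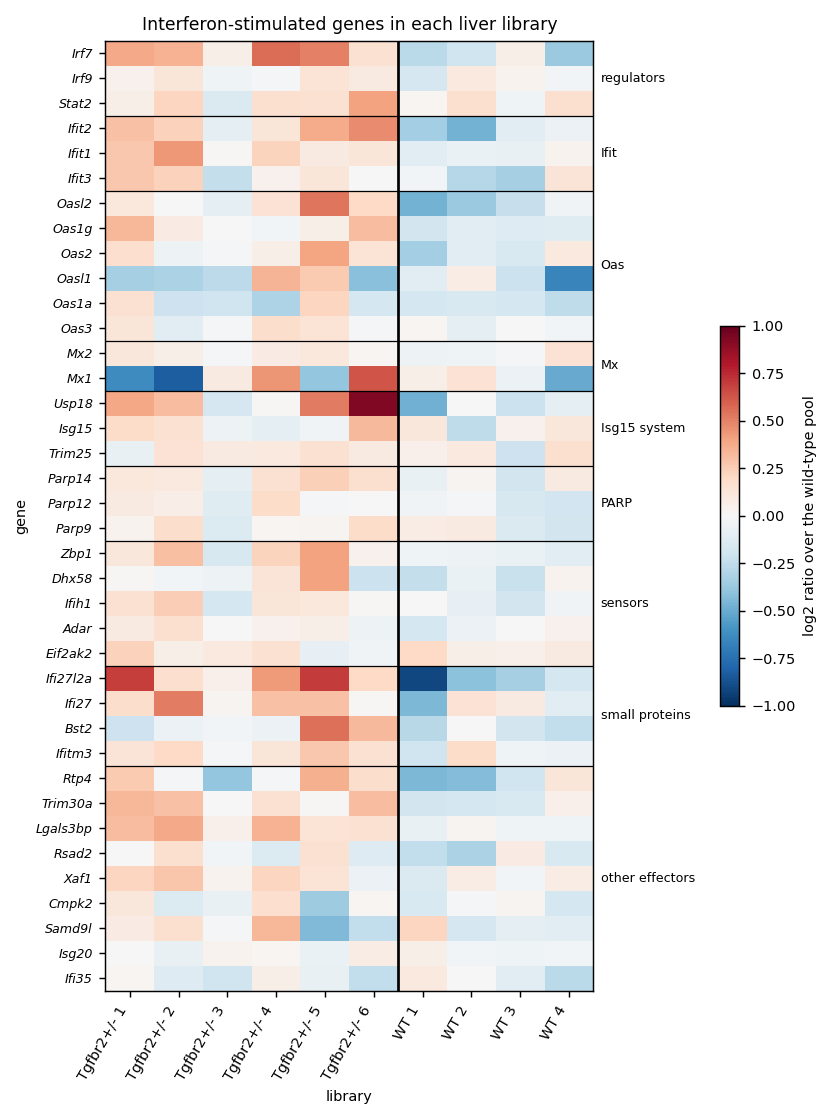
Log2 ratio over the wild-type pool (colour, red above and blue below the pool) of the 38 interferon-stimulated genes (rows, grouped by role) in the 6 Tgfbr2+/- and 4 WT libraries (columns). In Tgfbr2+/- replicate 3 only 11 genes lie above the pool, against 26 to 34 in the other 5 heterozygous libraries and 7 to 14 in WT libraries.

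Among the transcription factors, Irf7 stood apart from Irf9 and Stat2. Irf7, the factor that amplifies transcription of interferon genes (probe 10024399843), lay at 0.06, 0.36 and 0.56 (lowest, median and highest) in Tgfbr2+/- libraries, against -0.27, -0.20, 0.06 and -0.37 in WT replicates 1 to 4. Its lowest heterozygous library, replicate 3, matched WT replicate 3 to 2 decimals, and the other 5 lay above every WT library. The means were 0.33 ± 0.20 in Tgfbr2+/- and -0.20 ± 0.19 in WT (SD, n = 6 and 4), a difference of 0.53 ± 0.11 (SE), or 1.44-fold, with a limma adjusted p of 0.280. Irf9 and Stat2, which belong to the factor that carries the signal to the nucleus, differed by 0.07 ± 0.06 and 0.07 ± 0.09. For both of these the groups overlapped.

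The Ifit genes encode proteins that bind foreign RNA and hold back its translation, and all 3 had positive differences. Ifit2 lay at -0.09, 0.26 and 0.47 (lowest, median and highest) in Tgfbr2+/- libraries, against -0.34, -0.47, -0.12 and -0.06 in WT replicates 1 to 4. Its difference was 0.48 ± 0.11, or 1.39-fold (limma adjusted p = 0.437), and 0.31 with WT replicate 1 turned in sign. Only Tgfbr2+/- replicate 3 of the 6 lay within the WT range. Ifit1, which binds capped RNA that lacks the host's cap methylation, lay at 0.01, 0.17 and 0.44 in Tgfbr2+/- libraries, against -0.11, -0.07, -0.07 and 0.04 in WT libraries. That is a difference of 0.25 ± 0.08 (limma adjusted p = 0.704), with 5 of the 6 heterozygous libraries above all WT ones. Ifit3, on 2 probes, differed by 0.20 ± 0.11, by 0.23 on one probe and 0.17 on the other, and its groups overlapped widely.

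The Oas genes make or resemble the enzymes that form 2'-5' oligoadenylate, the activator of RNase L. All 6 had positive differences, from 0.07 for Oas3 to 0.42 for Oasl2. Oasl2 lay at -0.10, 0.12 and 0.53 (lowest, median and highest) in Tgfbr2+/- libraries, against -0.47, -0.37, -0.23 and -0.03 in WT replicates 1 to 4, a difference of 0.42 ± 0.12, or 1.34-fold (limma adjusted p = 0.621). It was 0.19 with WT replicate 1 turned in sign and 0.25 with Tgfbr2+/- replicate 5 turned. Tgfbr2+/- replicate 3 was the library that overlapped WT. Oas1g, whose promoter is printed above, lay at -0.03, 0.07 and 0.33 in Tgfbr2+/- libraries, against -0.19, -0.12, -0.13 and -0.12 in WT libraries. The groups did not overlap, and the difference was 0.26 ± 0.08, or 1.20-fold (limma adjusted p = 0.637), and 0.17 with WT replicate 1 turned in sign. Oas2 lay at -0.05, 0.10 and 0.39 in Tgfbr2+/- libraries, against -0.34, -0.11, -0.15 and 0.10 in WT libraries, and 3 of the 6 heterozygous libraries lay above all WT ones. Its difference was 0.24 ± 0.10 (limma adjusted p = 0.856), but 0.07 with WT replicate 1 turned in sign and 0.11 with Tgfbr2+/- replicate 5 turned. Oas1a, a close paralogue of Oas1g, differed by 0.10 ± 0.10, and Oasl1, in mouse a repressor of Irf7 translation, by 0.11 ± 0.18. Since probe sequences were not at hand, how far such paralogues share signal is unknown.

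The Mx genes, dynamin-like GTPases that trap viral particles, had differences near 0. Mx2 lay at -0.01, 0.07 and 0.11 (lowest, median and highest) in Tgfbr2+/- libraries, against -0.05, -0.04, -0.01 and 0.14 in WT replicates 1 to 4. The difference was 0.05 ± 0.05, with a 95% interval from -0.06 to 0.16 (limma adjusted p = 0.934), and single libraries left out or turned gave 0.02 to 0.09. Mx1, which is defective in many laboratory strains, had the widest range of the 38 genes within Tgfbr2+/- libraries, at -0.82, -0.15 and 0.63, against 0.06, 0.15, -0.06 and -0.51 in WT libraries. Its difference of -0.02 ± 0.28 had a 95% interval from -0.64 to 0.59 (limma adjusted p = 0.994). The sign of that difference depends on single libraries.

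**Figure D3:**
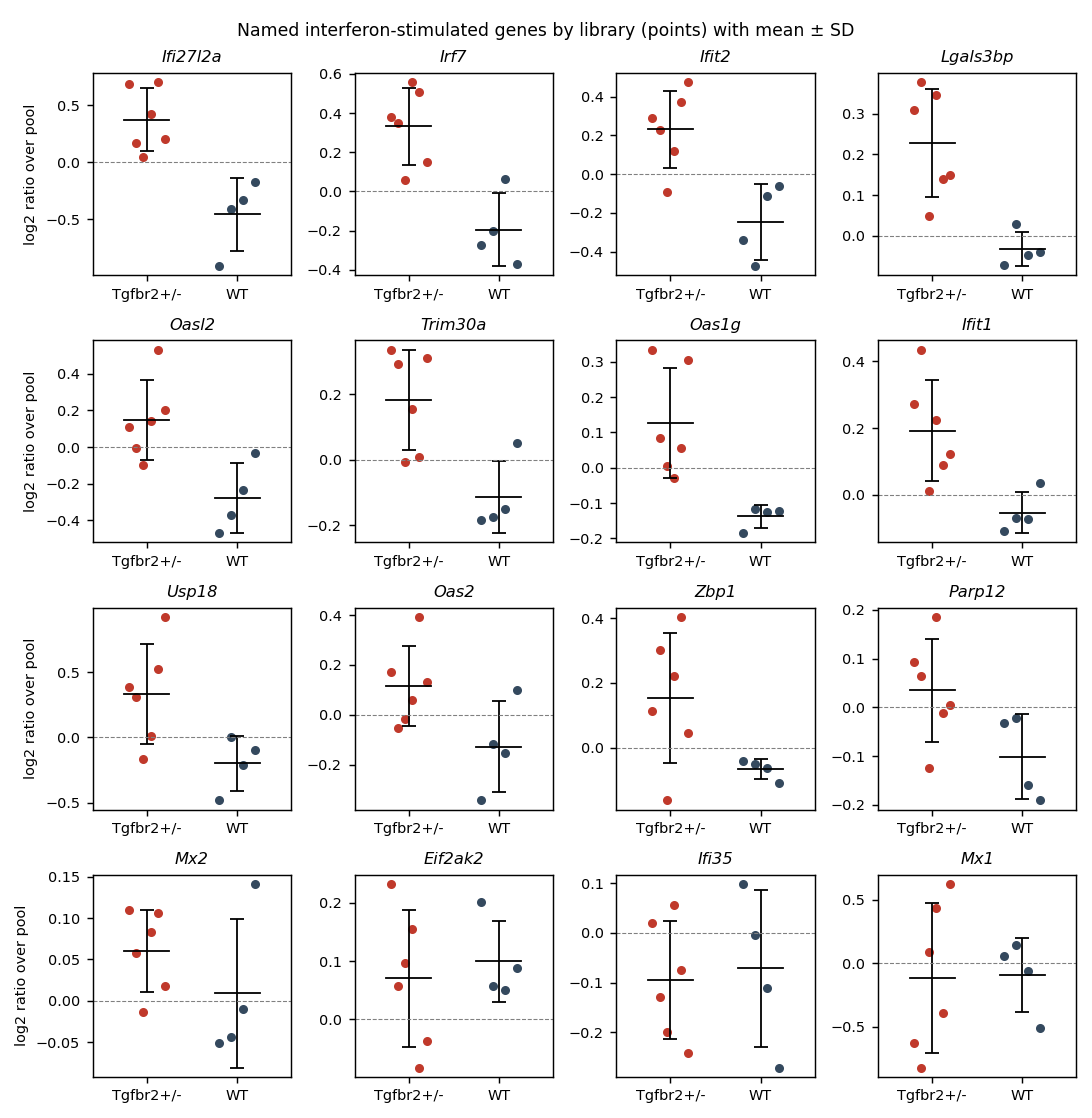
Log2 ratio over the pool of the 16 genes described in full, 1 panel each in order of p, with Tgfbr2+/- libraries left and WT libraries right; points are libraries, the bar is the mean and the whiskers are ± SD (n = 6 and 4), and scales differ between panels. The groups are separate for Ifi27l2a, Lgals3bp and Oas1g, while for Zbp1, Mx2, Eif2ak2, Ifi35 and Mx1 the range of one group lies inside that of the other.

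In the Isg15 system, which tags proteins with a ubiquitin-like modifier, Usp18 had the widest difference of the 3 measured genes. Usp18 removes Isg15 from its targets and blocks the interferon receptor. It lay at -0.17, 0.35 and 0.92 (lowest, median and highest) in Tgfbr2+/- libraries, against -0.48, 0.0027, -0.21 and -0.10 in WT replicates 1 to 4. The means were 0.33 ± 0.39 in Tgfbr2+/- and -0.20 ± 0.21 in WT (SD, n = 6 and 4), a difference of 0.53 ± 0.19, or 1.44-fold (limma adjusted p = 0.771). With WT replicate 1 turned in sign the difference of Usp18 was 0.29. Replicate 6 was the highest heterozygous library and replicate 3 the lowest, and replicate 3 alone lay within the WT range. Isg15 itself, on 2 probes, differed by 0.08 ± 0.10, and the ubiquitin ligase Trim25, which acts on the RNA sensor RIG-I, by 0.06 ± 0.07.

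The 3 PARP genes, ADP-ribosyltransferases, had differences of 0.09 to 0.15. Parp12 lay at -0.12, 0.03 and 0.19 (lowest, median and highest) in Tgfbr2+/- libraries, against -0.03, -0.02, -0.16 and -0.19 in WT replicates 1 to 4, a difference of 0.14 ± 0.06 (limma adjusted p = 0.917). Tgfbr2+/- replicate 3 was the only heterozygous library inside the WT range. The 2 probes of Parp14 disagreed, at 0.30 and -0.01.

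Of the 5 sensors of nucleic acid, 4 had positive differences. Zbp1, which binds left-handed nucleic acid and can start necroptosis, lay at -0.16, 0.17 and 0.41 (lowest, median and highest) in Tgfbr2+/- libraries, against -0.04, -0.05, -0.06 and -0.11 in WT replicates 1 to 4. Replicate 3, the lowest heterozygous library, lay below all WT libraries, and the other 5 above them all. The difference was 0.22 ± 0.09 (limma adjusted p = 0.876), and 0.09 with Tgfbr2+/- replicate 5 turned in sign. The RNA helicases Ifih1 (MDA5) and Dhx58 (LGP2) differed by 0.15 ± 0.08 and 0.17 ± 0.11, and the RNA editor Adar by 0.10 ± 0.06. Eif2ak2, the RNA-dependent kinase PKR, lay at -0.08, 0.08 and 0.23 in Tgfbr2+/- libraries, against 0.20, 0.06, 0.05 and 0.09 in WT libraries. Its difference was -0.03 ± 0.07, with an interval from -0.17 to 0.11 (limma adjusted p = 0.969).

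The small membrane and mitochondrial proteins included Ifi27l2a, which had the largest difference of the 38 as deposited but not with WT replicate 1 turned in sign. Ifi27l2a, a short interferon-induced protein (probe 10024402866), lay at 0.05, 0.32 and 0.70 (lowest, median and highest) in Tgfbr2+/- libraries, against -0.91, -0.41, -0.33 and -0.18 in WT replicates 1 to 4. All 6 heterozygous libraries were above the pool and all 4 WT libraries below it. The means were 0.37 ± 0.28 in Tgfbr2+/- and -0.46 ± 0.32 in WT (SD, n = 6 and 4), a difference of 0.83 ± 0.17, or 1.78-fold, with a 95% interval from 0.47 to 1.20 (limma adjusted p = 0.270). With WT replicate 1, whose direction is not settled, turned in sign, the difference of Ifi27l2a was 0.38, below that interval and below the 0.39 of Irf7. Its relative Ifi27 differed by 0.30 ± 0.13, Bst2 (tetherin, which holds budding virus at the cell surface) by 0.27 ± 0.14 and Ifitm3, which blocks fusion of virus with the endosome, by 0.17 ± 0.08. For Bst2 only Tgfbr2+/- replicates 5 and 6, at 0.55 and 0.32, lay above the pool.

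Among the other effectors, Lgals3bp and Trim30a had the smallest p. Lgals3bp, a secreted glycoprotein that binds galectins, lay at 0.05, 0.23 and 0.38 (lowest, median and highest) in Tgfbr2+/- libraries, against -0.07, 0.03, -0.05 and -0.04 in WT replicates 1 to 4. The groups were separate and the WT libraries close together, with means of 0.23 ± 0.13 in Tgfbr2+/- and -0.03 ± 0.04 in WT (SD, n = 6 and 4). The difference was 0.26 ± 0.07, or 1.20-fold (limma adjusted p = 0.580). Trim30a, in mouse a damper of Toll-like receptor signals, lay at -0.01, 0.22 and 0.34 in Tgfbr2+/- libraries, against -0.18, -0.17, -0.15 and 0.05 in WT libraries, and WT replicate 4 overlapped the heterozygous range. That difference was 0.30 ± 0.08 (limma adjusted p = 0.621). Rsad2 (viperin, which makes a chain-terminating nucleotide) differed by 0.16 ± 0.09, Rtp4 by 0.31 ± 0.15 and Xaf1 by 0.14 ± 0.07, while the nucleotide kinase Cmpk2 (0.03 ± 0.10), the exonuclease Isg20 (0.01 ± 0.04) and Samd9l (0.02 ± 0.14) had differences near 0. Ifi35 lay at -0.24, -0.10 and 0.06 in Tgfbr2+/- libraries, against 0.10, -0.004, -0.11 and -0.27 in WT libraries, a difference of -0.02 ± 0.08 with an interval from -0.20 to 0.16 (limma adjusted p = 0.988).

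**Figure D4:**
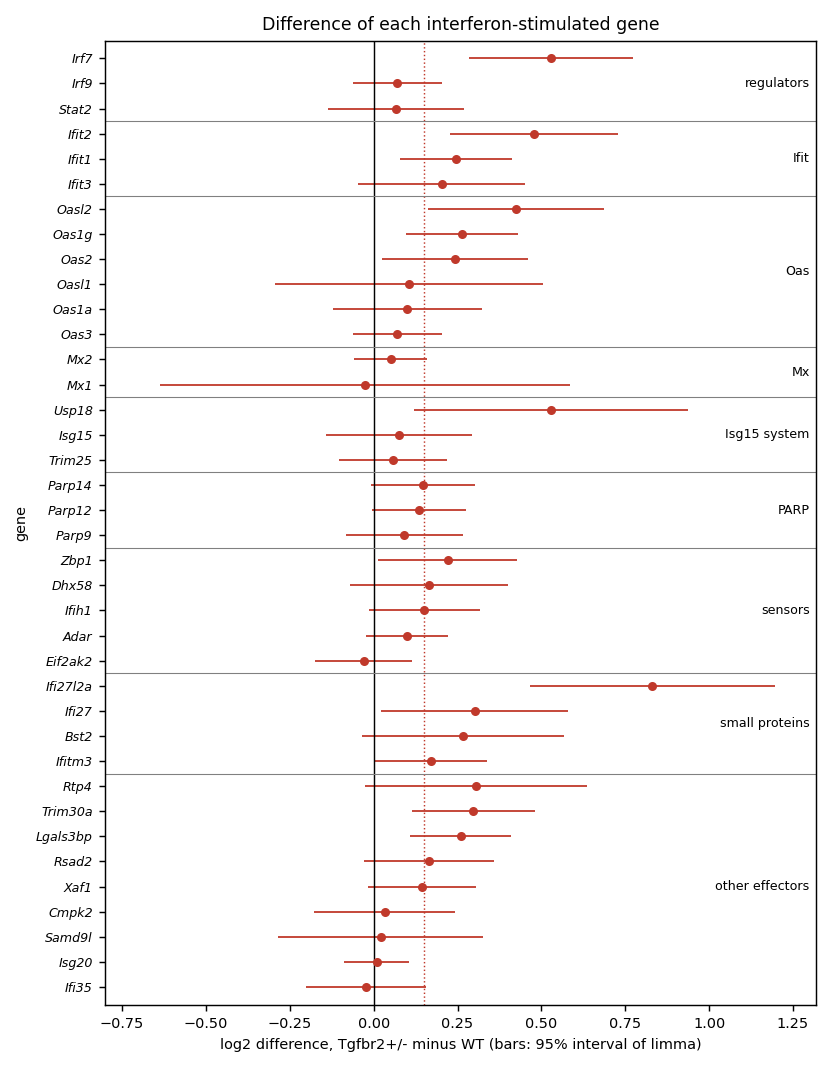
Difference between Tgfbr2+/- and WT libraries on the log2 scale for each of the 38 interferon-stimulated genes, grouped by role; points are limma's estimates, bars their 95% intervals, and the dotted line the median of 0.15. Only Eif2ak2, Ifi35 and Mx1 lie left of 0, at -0.03, -0.02 and -0.02.

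The 22 genes not given by library had differences from 0.01 to 0.31. All were positive by selection, because every gene opposite in sign to the median was given by library. Of the 22, Ifi27 and Ifitm3 (9.09%) were higher at an unadjusted limma p under 0.05, where 2.97% of all genes were. In none were the groups separate, but the 10 genes of smallest p, which include the 3 separate ones, had been taken out.

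The heterozygous libraries did not share the pattern evenly. The mean over the 38 genes was 0.13, 0.10, -0.06, 0.13, 0.16 and 0.11 in Tgfbr2+/- replicates 1 to 6, against -0.14, -0.07, -0.10 and -0.07 in WT replicates 1 to 4. Tgfbr2+/- replicate 3 lay between the highest WT library and the other heterozygous ones. It was the lowest heterozygous library for 19 of the 38 genes and the highest for 0. In it 3 genes lay above all WT libraries (7.89% of the 38, where 14.3% of all genes did), whereas in the other 5 heterozygous libraries 21 to 25 did (55.3% to 65.8%, where 19.6% to 28.4% of all genes did). The library labelled Tgfbr2+/- replicate 4, which was at the WT level for Tgfbr2, had 21 such genes.

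Single libraries changed some of the counts, over all genes as well as over the 38. Without Tgfbr2+/- replicate 3 the groups were separate for 12 of the 38 genes, where 1.5% of all genes were, and 18 had an unadjusted limma p under 0.05 and were higher, where 3.72% of all genes were. The median difference over the 38 was then 0.18. The smallest limma adjusted p of a gene given by library was 0.0893, for Irf7, and 0 of the 38 passed, while 10 other genes (0.061% of all) did. Of these, C1qc, Cd5l, Fcgr1 and Tyrobp are on the list of macrophage markers used below. The rest were Ctss, Nckap1l, Pcolce2, Pilra, Plac8 and Slamf8, which are not on it. Without WT replicate 3 the groups were separate for 5 of the 38 and for 1.1% of all genes, and without WT replicate 4 for 8 of the 38 and for 2.14% of all genes. With WT replicate 1 turned in sign 36 of the 38 differences were positive, where 54.2% of all were. In that setting 3 of the 38 were higher at an unadjusted p under 0.05 (1.82% of all genes), 0 were separate (0.256% of all genes) and the median was 0.08. With Tgfbr2+/- replicate 5 turned 37 were positive (52% of all genes), 7 were higher at that p (1.61%), 1 was separate (0.317%) and the median was 0.10.

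Against the pool, heterozygous libraries averaged higher and WT libraries lower. In Tgfbr2+/- libraries 31 of the 38 genes averaged above the pool, where 54.7% of all genes did, with a median of 0.08. In WT libraries 33 averaged below the pool, which is itself wild-type liver, where 45.5% of all genes did, with a median of -0.08. By limma's test against 0 none of the 38 passed in Tgfbr2+/- libraries, where 2 of all genes (0.0122%) did, and none in WT libraries, where 0 genes (0%) did. That test leaves out the spread of the pool and any dye bias. Without Tgfbr2+/- replicate 3, Lgals3bp passed as above the pool (0.26 ± 0.04, limma adjusted p = 0.0381). The SD was larger in Tgfbr2+/- than in WT for 23 of the 38 genes (60.5%) and for 63.9% of all genes.

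Few genes upstream of the response had large differences. Of 8 listed genes of the receptor and its signal 7 were measured, and all 7 differences were positive with a median of 0.06, 0 of them with an unadjusted p under 0.05. The receptor chains Ifnar1 and Ifnar2 differed by 0.06 ± 0.04 and 0.11 ± 0.08, and Socs1, a feedback inhibitor of the kinases, by 0.25 ± 0.12 (limma adjusted p = 0.917). The interferon genes themselves, 11 of 20 measured, had 6 positive and 5 negative differences with a median of 0.001 and 0 with an unadjusted p under 0.05. The one of smallest p was Ifna6, at -0.08 ± 0.04 (limma adjusted p = 0.917). Whether the signal of these probes exceeded background cannot be read from ratios.

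Of the genes that induce interferon, 11 of 17 were measured, with 6 positive differences and a median of 0.02. Irf5, a factor of macrophages downstream of Toll-like receptors, differed by 0.47 ± 0.18 (limma adjusted p = 0.806). Irf5 and Tlr4 were the 2 of the 11 with an unadjusted limma p under 0.05, both higher, where 2.97% of all genes were. Of the genes of the interferon gamma signal all 6 were measured and had positive differences, with a median of 0.12, and Ifngr1, its receptor chain, was at 0.14 ± 0.07 (limma adjusted p = 0.917). Of 15 interferon-inducible GTPases 11 were measured, 9 with positive differences, with a median of 0.18. Gbp3 differed by 0.35 ± 0.09 (limma adjusted p = 0.616). Gbp3 and Iigp1 were the 2 of the 11 that were higher at an unadjusted limma p under 0.05, where 2.97% of all genes were. The mean of the 11 GTPases in Tgfbr2+/- replicate 3 was -0.32, below every WT library, which lay from -0.19 to -0.02.

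Markers of Kupffer cells and macrophages also averaged higher in all 6 Tgfbr2+/- libraries than in any WT library. Of 16 listed 15 were measured, and the median difference was 0.43. Positive differences were found for 14, where 52.6% of all genes had one. At an unadjusted limma p under 0.05, 12 were higher (2.97% of all genes), and 8 had separate groups (0.726% of all genes). Cd5l, a secreted macrophage protein, differed by 0.67 ± 0.10 (limma adjusted p = 0.115). The list's mean was 0.23, 0.24, -0.01, 0.09, 0.20 and 0.29 in Tgfbr2+/- replicates 1 to 6, against -0.18, -0.16, -0.20 and -0.19 in WT replicates 1 to 4. Replicate 3 was the lowest heterozygous library for this list too. Neutrophil markers, 9 of 10 measured, had 8 positive differences, a median of 0.07 and means of 0.05 to 0.24 in Tgfbr2+/- and -0.14 to 0.04 in WT libraries, with S100a9 at 0.79 ± 0.18 (limma adjusted p = 0.419). The part of either cell type in the interferon-stimulated genes was not tested.

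**Figure D5:**
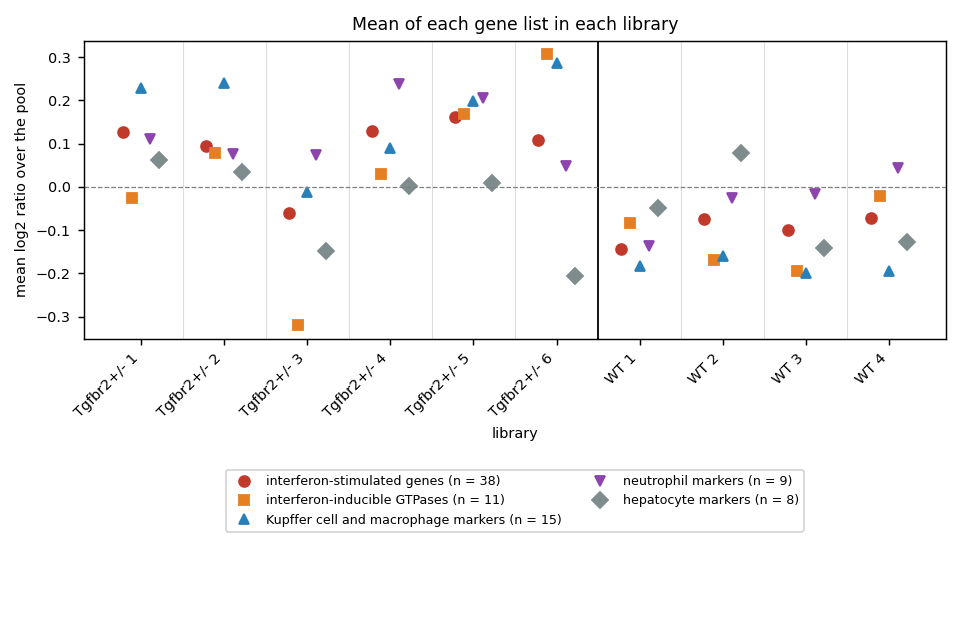
Mean log2 ratio over the pool of the 38 interferon-stimulated genes and of 4 other gene lists in each Tgfbr2+/- (left) and WT (right) library; each symbol is the mean over the genes of a list. In Tgfbr2+/- replicate 3 the interferon-stimulated genes are at -0.06, the macrophage markers at -0.01 and the GTPases at -0.32.

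Markers of plasmacytoid dendritic cells, which make most type I interferon in infection, had 5 positive differences among 8, a median of 0.07 and means of 0.03 to 0.13 in Tgfbr2+/- and -0.09 to 0.08 in WT libraries. Siglech, their surface lectin, differed by 0.32 ± 0.12 (limma adjusted p = 0.796), and Bst2 belongs to both lists. Medians were 0.01 for 13 T, NK and B cell markers, 0.004 for 10 of sinusoidal endothelium, 0.01 for 8 of hepatocytes, -0.04 for 8 of stellate cells and -0.01 for 5 of cholangiocytes. In that order 7, 5, 5, 3 and 1 differences were positive, where 52.6% of all genes had one. Of the endothelial markers 1 was separate above and 1 below the WT libraries, where 119 and 58 of 16383 genes were. In these lists Cd3e (0.12 ± 0.06), Clec4g (0.27 ± 0.08), Lrat (0.15 ± 0.08), Apoa1 (-0.14 ± 0.10) and Epcam (0.05 ± 0.09) had the smallest p, with limma adjusted p from 0.621 for Clec4g to 0.964 for Epcam.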

How the data were processed

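The deposited values are ratios of a library and the wild-type pool on a log scale, taken as log10 because 8 values equal 2 or -2, that is 100-fold either way; none of these 8 belongs to a probe used here for the interferon-stimulated genes. RNeasy columns with DNase gave the RNA, and an automated aminoallyl MessageAmp II kit the labelled product, per the labels' protocols. Scanner software, background correction, normalization and how a column joins dye-swapped arrays are not given in the sources used here. Scale and direction are inferred; centring was read from the values.

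A factor of 3.32 turned the values into log2 ratios, and probes with 1 symbol (17726 of 23438) were averaged to 16383 genes. No symbol changed through Entrez identifiers. The groups, from the titles, were compared with limma 3.58.1 (lmFit, eBayes, two-sided) in R 4.3.3, adjusted by Benjamini-Hochberg over all genes at 0.05. The procedure was tested on simulated data. The libraries are labelled as separate mice; their number limits the precision. Absolute signal, and so depth, is unknown.

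The members and lists were chosen with earlier results of these data known. Given by library were the 10 members of smallest p, the one of smallest p in each role and those opposite in sign to the median; of each other list, the gene of smallest p, with Tgfbr2 and the receptor chains. Tlr4, Iigp1 and other genes named beside these were chosen after their values were seen. A planned comparison of protein sequences was not made.

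Same-numbered libraries did not deviate together in every pair (correlations from 0.007 to 0.302), so numbers were not used as pairs. Alternatives were another summary of probes, centring, quantile normalization, array weights, another prior, the replicate block, an exact permutation test, turned columns and left-out libraries.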

Additional observations from a re-analysis of the deposited data

Results flagged for a closer look

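In 34 tests of a library's distance from its own group (Dixon's criterion at 95%, over the 16 genes given by library and the median of the 38), 3 libraries stood apart, and chance alone gives about 1 in 20 groups. The median of the 38 genes in Tgfbr2+/- replicate 3 was -0.0282, and the nearest other heterozygous library was at 0.09. Trim30a in WT replicate 4 was at 0.0495, with the other WT libraries at -0.15 or below. Oas1g in WT replicate 1 was at -0.19, with the next at -0.13.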

How the results depend on the processing

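The 3 genes with a negative difference changed sign under other settings. Eif2ak2 was at 0.0173 with array weights, 0.0360 with the replicate block and 0.0716 with WT replicate 1 turned. Ifi35 was at 0.00497, 0.00864 and 0.0264 under those settings and 0.00144 with Tgfbr2+/- replicate 5 turned. Mx1 was at 0.0111 with quantile normalization, 0.00581 with WT replicate 1 turned and 0.105 with Tgfbr2+/- replicate 5 turned. Leaving out single libraries gave -0.0619 to 0.00482 for Eif2ak2, -0.0898 to 0.0337 for Ifi35 and -0.173 to 0.117 for Mx1. The other 13 genes given by library kept their sign in all 20 alternatives, and none passed between the groups after adjustment. Some of the 20 could not turn a sign. The genes given by library have 1 probe each, so the summary per probe left their differences unchanged. The other prior and the exact permutation change only the test. By exact permutation the smallest p that 210 groupings allow is 0.0048, and the lowest adjusted p over all genes was 0.937. Leaving out single libraries, 0 to 10 genes passed the adjusted threshold between the groups. Against the pool, 0 to 1 members passed it in heterozygous libraries. Separate genes of the 38 numbered 3 to 12, where 0.855% to 2.14% of all genes were separate. In those settings 33 to 38 differences were positive (51% to 53.4% of all genes). At an unadjusted limma p under 0.05, 9 to 18 were higher (1.92% to 3.99% of all genes). The median over the 38 was 0.12 to 0.18. Without Tgfbr2+/- replicates 3 and 4 together 3 genes passed and 12 of the 38 were separate, where 2.15% of all genes were. With WT replicate 1 turned 3 of the 38 were higher at an unadjusted limma p under 0.05 (1.82% of all genes). In that setting 0 were separate (0.256% of all genes) and the median was 0.082. With Tgfbr2+/- replicate 5 turned 7 were higher at such a p (1.61% of all genes) and 1 was separate (0.317%). With the replicate block 36 differences were positive, where 52.4% of all genes were. At an unadjusted limma p under 0.05, 12 were higher, where 4.73% of all genes were. The median was 0.15, and the block changed no count over the 38 by over 1.5 times. The difference of Usp18 was 0.33 with the block. Per probe 38 of 42 differences were positive, where 52.6% of all genes were with probes averaged. Of 27 genes 55.6% held the letters within the nearest 200 bases, where 5.61% of the 13016 measured genes with a promoter did. At least 2 matches were held by 40.7% of the 27 and by 0.799% of the 13016. The causes were not tested, and no filter on dim probes could be run on ratios.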
